A study of Bos taurus with 6 samples.

Results

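The genes described here are the AP-1 and immediate early genes FOS, FOSB, FOSL1, FOSL2, JUN, JUNB, JUND, EGR1, ATF3 and IER2, in bovine embryonic stem cells grown on 2 kinds of feeder layer. They were matched by gene symbol and Entrez identifier, and all 10 were found among the 19163 genes of the count table and passed the filter on low counts. The cells were the F7 line, derived from an in vitro fertilized Holstein Friesian embryo, at 15 passages. RNA-seq libraries, 3 per group, were compared, MC-F7 for cells on mouse embryonic fibroblasts (MEFs) treated with mitomycin C (labelled 1M-F7) and MT-F7 for cells on MEFs fixed with methanol. Both groups were kept in a medium with FGF and the Wnt inhibitor IWR1, dissociated with TrypLE and left on a gelatin-coated dish for 25 min, after which the floating cells were collected. The medium was refreshed daily for MC-F7 and every other day for MT-F7, so the feeder layer and the refreshment interval cannot be told apart in this design. F7 is a single cell line. The study describes its data in general as coming from 3 or more technical replicates. No source used here tells if the RNA-seq libraries are separate cultures. The p-values therefore measure only the spread between these libraries, which may be technical.

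AP-1 is a transcription factor made of pairs of basic leucine zipper proteins. A FOS family protein (FOS, FOSB, FOSL1 or FOSL2) binds DNA as the partner of a JUN family protein (JUN, JUNB or JUND), whereas JUN proteins can also pair with each other. Immediate early genes are switched on within minutes by growth factors, serum or stress, with no need for new protein synthesis, and MAP kinases acting on serum response factor and its ETS partners are the textbook route to FOS and EGR1. Their transcripts are short lived, and handling of cells such as enzymatic dissociation is known to induce them.

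Total counts ranged from 21958386 to 23414319 across the MC-F7 libraries, and the MT-F7 libraries held 24271208 to 24933430. The smallest amount taken as detected, 3 counts, came to 0.12 to 0.137 per 1000000 of these totals, before TMM scaling. CPM is counts per 1000000 after TMM scaling of library size. Mitochondrial genes took 16.3% to 28.3% of the MC-F7 counts and 18.0% to 27.9% of the MT-F7 counts, with replicate 3 the highest in each group. Of the 7 pluripotent cell markers in the count table, 6 fell in MT-F7, and their summed level went from 1367-2053 CPM to 742-860 CPM. POU5F1, the core pluripotency factor, fell from 1196 ± 330 to 522 ± 35.6 CPM (SD, n = 3, edgeR adjusted p = 0.0012). Of the 16 fibroblast markers tested, 5 rose, 1 fell and 10 did not pass. The summed level of the list went from 416-510 CPM to 817-890 CPM. Its largest parts were FBLN1 (108 ± 21.0 to 327 ± 37.5 CPM) and COL1A1 (205 ± 31.4 to 268 ± 15.6 CPM), which did not pass. The sum thus does not speak for the list as a whole. Over all genes tested, 11.9% were called higher and 11.3% lower. The fibroblast marker left untested was FAP, which had 0 counts in every MT-F7 library and in MC-F7 replicate 1, and 9 and 7 counts in MC-F7 replicates 2 and 3. Feeder cells are mouse, and reads of mouse and bovine origin in a gene's count cannot be told apart here. The study reports a higher alignment rate to the bovine genome for MT-F7 than for MC-F7. It proposes that fixed feeders lessened contamination by feeder cells, so this limit may differ between the groups. The part of either marker list in the results that follow was not tested. In bulk RNA, a change in the number of cells expressing a gene and a change in RNA per cell cannot be told apart.

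FOS and EGR1 rose several fold in MT-F7 and JUNB rose to a smaller extent, while the other 7 genes did not pass the test. FOS was 5.31-fold higher (95% interval 3.79 to 7.43), EGR1 4.17-fold (2.96 to 5.89) and JUNB 1.78-fold (1.36 to 2.33), each by edgeR's quasi-likelihood test with Benjamini-Hochberg adjustment over all 13001 genes tested. The 3 of 10 genes called, all 3 of them higher, stand beside 23.2% of all genes tested called in either direction and 11.9% called higher, so the count alone does not set these genes apart. The groups did not overlap in 5 of the 10 genes, against 40% of all genes tested. The median log2 fold change (MT-F7 over MC-F7) of the 10 genes was 0.22, and that of all genes tested was -0.0026. The size of the FOS and EGR1 changes lay far out in the distribution, where 128 genes rose more than FOS and 213 more than EGR1, and the median absolute log2 fold change of all genes was 0.34.

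**Figure D1:**
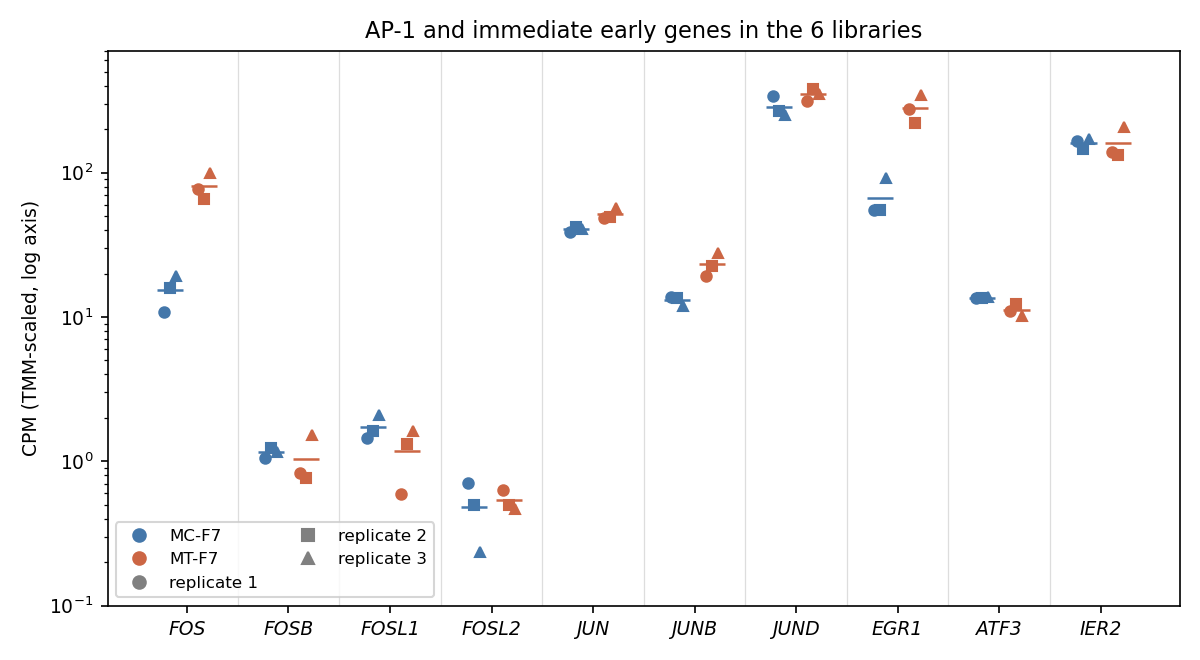
CPM (log axis) of the 10 genes in each of the 6 libraries, MC-F7 in blue and MT-F7 in orange, with a marker shape per replicate number and a line at each group mean. FOS lies at 10.9 to 19.2 CPM in MC-F7 and 66.2 to 100 CPM in MT-F7, and EGR1 at 54.8 to 91.8 CPM and 221 to 344 CPM, while FOSB, FOSL1, FOSL2, JUND and IER2 overlap between groups.

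FOS, the founding member of its family, was at 10.9, 15.9 and 19.2 CPM in MC-F7 replicates 1, 2 and 3 and at 77.5, 66.2 and 100 CPM in those of MT-F7. Every MT-F7 library stood above every MC-F7 library, by a gap wider than the range within either group. The means were 15.3 ± 4.18 and 81.2 ± 17.2 CPM (SD, n = 3), a log2 fold change of 2.41 (SE 0.22, edgeR adjusted p = 1.0e-05). FOS is among the genes that the study itself listed as higher in MT-F7 from these same libraries, so its direction is not independent evidence.

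The 3 other FOS family genes were low in both groups. FOSB, like FOS a strong activator with a transactivation domain, had 24, 30 and 25 raw counts in the MC-F7 libraries, against 21, 20 and 36 for MT-F7, a fold of 0.900 (95% interval 0.491 to 1.65, adjusted p = 0.83 by edgeR). FOSL1 (FRA1), which lacks that domain, had 33, 39 and 45 raw counts in MC-F7, compared with 15, 34 and 38 in MT-F7, a fold of 0.681 (95% interval 0.368 to 1.26, edgeR adjusted p = 0.36). The lowest FOSL1 value was that of MT-F7 replicate 1, without which the log2 fold change went from -0.55 to -0.25. FOSL2 (FRA2) had 16, 12 and 5 raw counts in MC-F7, compared with 16, 13 and 11 in MT-F7, a fold of 1.11 (95% interval 0.504 to 2.45, adjusted p = 0.87 by edgeR). At these depths the intervals of the 3 genes leave room for a change of up to 1.26-fold to 2.45-fold upward, all below the lower bound of 3.79-fold for FOS.

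Among the JUN family, JUNB was the gene that passed the test. JUNB, whose protein activates less strongly than JUN and can restrain it, was at 13.7, 13.6 and 12.0 CPM in MC-F7 and at 19.2, 22.7 and 27.9 CPM in MT-F7. The groups did not overlap, and the means of 13.1 ± 0.949 and 23.3 ± 4.42 CPM (SD, n = 3) gave a log2 fold change of 0.83 (SE 0.18, edgeR adjusted p = 0.0052). JUN, the main partner of FOS, was at 38.5, 42.0 and 40.8 CPM in MC-F7 and 48.8, 49.3 and 57.3 CPM in MT-F7. All MT-F7 libraries were higher, but the difference was small, with means of 40.4 ± 1.76 and 51.8 ± 4.78 CPM, and a fold of 1.28 (95% interval 1.03 to 1.60) did not pass edgeR's test (adjusted p = 0.097). The call on JUN turned with the method, since limma on log2(TPM + 1) gave an adjusted p of 0.040, in a range of 0.033 to 0.22 over the 17 alternatives. JUND, which most cells express without stimulation, was at 339, 267 and 251 CPM in MC-F7 and 313, 382 and 351 CPM in MT-F7. The groups overlapped, with MC-F7 replicate 1 above MT-F7 replicate 1, and the fold was 1.22 (95% interval 0.952 to 1.56, edgeR adjusted p = 0.24). In the RefSeq gene table of assembly ARS-UCD2.0, JUND overlaps IQCN, which was not in the count table, and the other 9 genes overlap no gene.

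Of the 3 genes outside AP-1 proper, EGR1 rose. EGR1, a zinc finger factor induced through the same kinase route as FOS, was at 55.4, 54.8 and 91.8 CPM in MC-F7 and 277, 221 and 344 CPM in MT-F7. The lowest MT-F7 library was above the highest MC-F7 library, and the means were 67.3 ± 21.2 and 281 ± 61.5 CPM (SD, n = 3), a log2 fold change of 2.06 (SE 0.23, edgeR adjusted p = 4.4e-05). ATF3, a stress-induced basic leucine zipper protein that pairs with JUN proteins and often represses, moved the other way without passing. Its levels were 13.5, 13.5 and 13.8 CPM in MC-F7 and 11.0, 12.3 and 10.1 CPM in MT-F7, which did not overlap, and its fold was 0.818 (95% interval 0.636 to 1.05, adjusted p = 0.24 by edgeR). IER2, a small nuclear protein of the early growth factor response, was at 165, 146 and 173 CPM in MC-F7 and 139, 133 and 207 CPM in MT-F7. The IER2 groups overlapped, since MT-F7 replicates 1 and 2 lay below and replicate 3 above the MC-F7 libraries, and the fold was 0.991 (95% interval 0.753 to 1.31, edgeR adjusted p = 0.97).

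**Figure D2:**
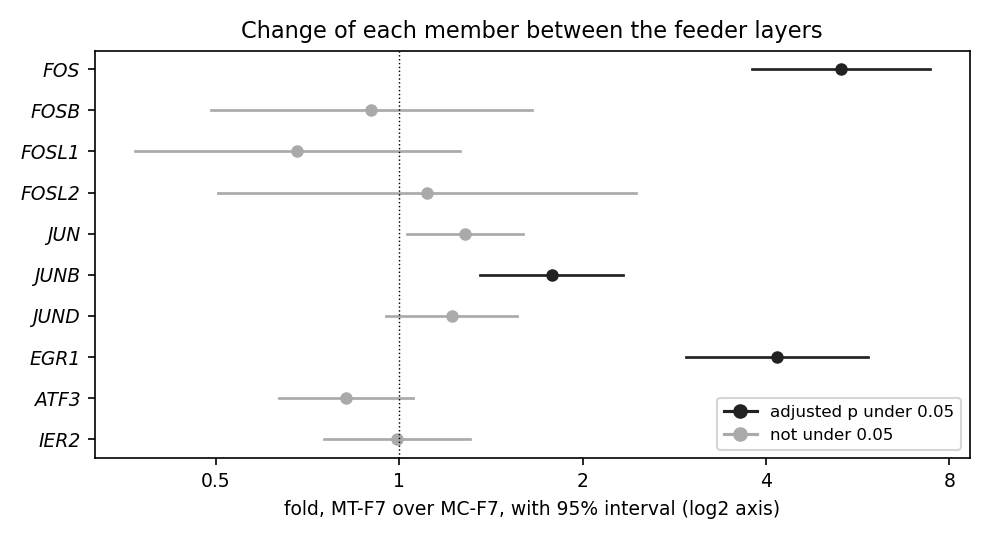
Fold of MT-F7 over MC-F7 (log2 axis) for the 10 genes, with 95% intervals from the edgeR fit, in black where the adjusted p was under 0.05 and in grey otherwise. The intervals of FOS (3.79 to 7.43), EGR1 (2.96 to 5.89) and JUNB (1.36 to 2.33) lie above 1, that of JUN starts at 1.03, and those of the other genes include 1.

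The calls on FOS, EGR1 and JUNB held in all 17 alternative fits, 6 of which left out 1 library each. Replicate 3 was the highest library of its own group for FOS and for EGR1 in both groups, and it also had the highest mitochondrial share in each. Without replicate 3 of both groups, an alternative added after seeing the data, the log2 fold changes were 2.44 for FOS, 2.19 for EGR1 and 0.64 for JUNB, with edgeR adjusted p-values of 5.1e-08, 1.4e-08 and 0.0055. In MT-F7, replicate 3 was the highest of its group in 7 of the 10 genes, and in MC-F7 in 5. The same share over all genes tested was not computed.

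Whether members changed unequally was examined with log2 ratios of their counts within each library, over 8 pairs chosen with the results known. The log2 ratio of FOS to JUN was -1.82, -1.40 and -1.09 in the MC-F7 libraries, against 0.67, 0.43 and 0.80 in those of MT-F7, so FOS had fewer counts than JUN in every MC-F7 library and more in every MT-F7 library. The FOS to FOSL1 ratio rose by 3.08 on the log2 scale, FOS to FOSB by 2.64 and FOS to FOSL2 by 2.14. The JUNB to JUN ratio went from -1.63 ± 0.14 to -1.17 ± 0.16 and JUNB to JUND from -4.44 ± 0.17 to -3.92 ± 0.23 (log2, SD, n = 3). EGR1 gained 2.12 on IER2 and 2.38 on ATF3 on the same scale. The groups did not overlap in any of the 8 ratios. Each gave p = 0.1 by a two-sided exact permutation test (0.1 after Benjamini-Hochberg adjustment over the 8), the smallest p that 3 against 3 libraries allow. Each pair set a gene that passed the edgeR test against a gene that did not. Separation was thus favoured by the choice of pairs, and these ratios add no separate evidence. How many ratios among all gene pairs do not overlap was not computed.

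Levels of different genes were compared per transcript length, in TPM (transcripts per 1000000) rescaled to that total in each library. In MC-F7 the order was JUND (213 ± 35.3 TPM), IER2 (118 ± 5.71), JUN (27.0 ± 1.95), EGR1 (23.8 ± 6.71), JUNB (9.46 ± 0.977), FOS (9.35 ± 2.45), ATF3 (8.64 ± 0.258), FOSL1 (1.18 ± 0.200), FOSB (0.470 ± 0.0503) and FOSL2 (0.182 ± 0.0905; all SD, n = 3). The libraries of JUN and EGR1 overlapped, as did those of JUNB, FOS and ATF3, so these neighbours cannot be ranked. In MT-F7, EGR1 stood at 86.7 to 123 TPM (105 ± 18.2) and IER2 at 107.5 to 153 TPM (123 ± 25.8). Their ranges overlapped, although EGR1 was below IER2 within each library. FOS at 52.2 ± 8.56 TPM stood above JUN (36.5 ± 1.83) and JUNB (17.7 ± 2.76) with no overlap. JUND stayed at the top with 274 ± 33.5 TPM. ATF3 (7.50 ± 1.07 TPM) lay below JUNB with no overlap, and FOSL1, FOSB and FOSL2 remained the 3 lowest, with FOSL1 and FOSB overlapping in MT-F7.

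As a share of the summed TPM of the 7 FOS and JUN family genes, the FOS family made up 2.82%, 4.64% and 5.81% in the MC-F7 libraries and 14.8%, 11.2% and 16.5% in those of MT-F7. The means were 4.42% ± 1.51 and 14.1% ± 2.71 (SD, n = 3), a difference of 9.72 percentage points, with no overlap (p = 0.1, two-sided exact permutation test, the smallest that the design allows). FOS alone went from 3.71% ± 1.37 to 13.7% ± 2.66. The share of FOSL1 went from 0.463% ± 0.137 to 0.217% ± 0.0839, without overlap. The level of FOSL1 itself overlapped, at 0.989 to 1.39 TPM in MC-F7 and 0.436 to 1.11 TPM in MT-F7. A share also falls when the sum rises, as it did here. JUND held the largest share throughout, 79.0% to 85.2% in MC-F7 and 68.2% to 75.7% in MT-F7. The JUN share overlapped between the groups, at 10.5% ± 1.58 and 9.58% ± 0.698. The summed TPM of the 7 genes was 228 to 294 in MC-F7 and 350 to 413 in MT-F7.

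**Figure D3:**
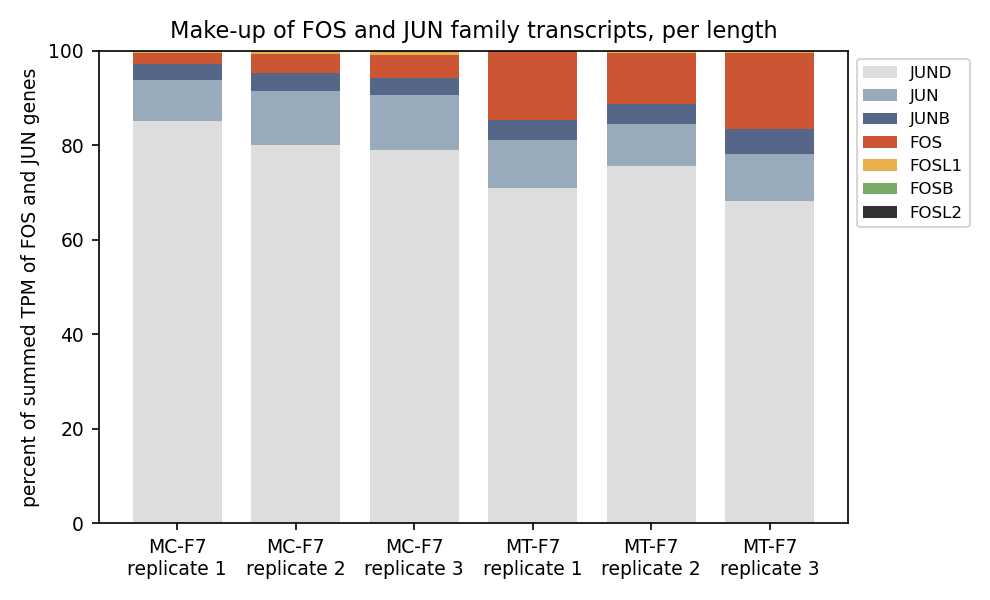
Stacked bars of the percent that each FOS and JUN family gene holds of their summed TPM in each library. The FOS segment is 2.25% to 4.96% in MC-F7 and 10.8% to 16.0% in MT-F7, and JUND is the largest segment in all 6 libraries.

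Among the other immediate early genes, changes went both ways. Of 32 genes of this list in the count table, 29 were tested, 4 rose and 5 fell, with a median log2 fold change of 0.07. Over all genes tested, 11.9% were called higher and 11.3% lower, so these counts alone do not set the list apart. CCN2, a secreted matricellular protein, rose 2.81-fold (6.83 ± 1.79 to 19.2 ± 4.81 CPM, edgeR adjusted p = 6.6e-04), and it too is on the study's lists from these libraries. DUSP1, a phosphatase that switches MAP kinases off, rose 2.03-fold (34.5 ± 5.68 to 70.1 ± 6.34 CPM, adjusted p = 7.4e-04 by edgeR). PHLDA1 and IER5L rose 1.92-fold and 1.74-fold. SGK1, a kinase induced by serum and glucocorticoids, fell to a fold of 0.298 (39.5 ± 3.90 to 11.8 ± 1.67 CPM, edgeR adjusted p = 1.6e-05). The zinc finger factors KLF6 and KLF10 fell to folds of 0.467 and 0.628, the stress gene GADD45B to 0.553 and the pseudokinase gene TRIB1 to 0.688. KLF10 did not pass without MC-F7 replicate 2 (edgeR adjusted p = 0.055), GADD45B without that library or MT-F7 replicate 1 or 2 (0.053 to 0.080), and TRIB1 without any 1 of the 6 libraries (0.058 to 0.10). Some relatives of the genes that rose were picked out after their values were seen. EGR2, the nearest relative of EGR1, was at 0.768 ± 0.261 CPM in MC-F7 and 1.46 ± 0.332 CPM in MT-F7 (edgeR adjusted p = 0.13). CCN1, the relative of CCN2, was at 345 ± 14.9 and 273 ± 33.7 CPM (adjusted p = 0.13 by edgeR), and it passed as lower without MT-F7 replicate 3 (adjusted p = 0.046) and without replicate 3 of both groups (adjusted p = 0.021). MYC had a fold of 0.842 (95% interval 0.604 to 1.18, edgeR adjusted p = 0.46), and NR4A1 at 9.76 ± 1.52 and 7.94 ± 1.27 CPM (adjusted p = 0.32 by edgeR). With limma 5 genes of the list passed on log2(TPM + 1) of the deposited values, 3 higher and 2 lower, and 8 on rescaled TPM, 4 higher and 4 lower.

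**Figure D4:**
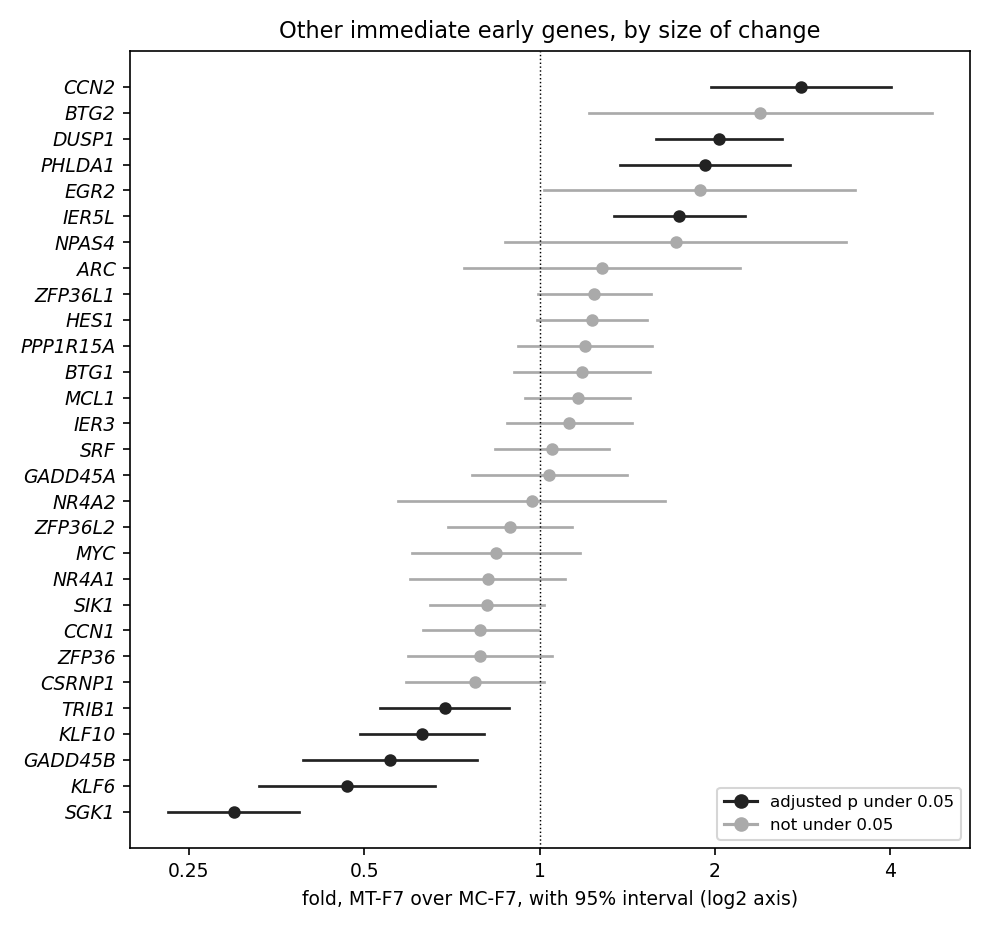
Fold of MT-F7 over MC-F7 (log2 axis) with 95% intervals for the 29 other immediate early genes tested, ordered by fold, in black where the edgeR adjusted p was under 0.05. Of these, 4 lie in black above 1, led by CCN2 at 2.81, and 5 below 1, down to SGK1 at 0.298.

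Calls among the regulators upstream of FOS and EGR1 also went both ways. Of 22 serum response and MAP kinase genes, all tested, 4 rose and 3 fell, with a median log2 fold change of 0.11. These counts stand beside 11.9% called higher and 11.3% called lower over all genes tested. MAPK10 (JNK3), a kinase of the family that phosphorylates JUN, rose 4.19-fold from 2.31 ± 0.196 to 9.68 ± 0.595 CPM (edgeR adjusted p = 2.3e-05), a gene also on the study's lists. Its relative MAPK9 (JNK2) rose 1.94-fold. ELK3, an ETS partner of serum response factor, rose 4.86-fold from a low level (0.362 ± 0.224 to 1.79 ± 0.405 CPM, adjusted p = 0.0051 by edgeR), and the cAMP-responsive factor CREM rose 1.87-fold. MRTFB, a coactivator of serum response factor, fell to a fold of 0.502, CREB1 to 0.565 and MAP2K2 (MEK2), a kinase that activates ERK, to 0.694. MAPK9 did not pass without MC-F7 replicate 1, MT-F7 replicate 1 or MT-F7 replicate 3 (adjusted p of 0.064 to 0.078 by edgeR), and MAP2K2 without MC-F7 replicate 1, MT-F7 replicate 1 or MT-F7 replicate 2 (0.064 to 0.11). SRF itself, named after its values were seen, was at 64.8 ± 5.99 and 68.1 ± 7.26 CPM (edgeR adjusted p = 0.78). With limma 1 gene of this list passed on log2(TPM + 1) of the deposited values, which rose, and 6 passed on rescaled TPM, 3 higher and 3 lower. NAB1 and NAB2 are corepressors of EGR1, and NAB2 is itself a known EGR1 target. Neither passed edgeR's quasi-likelihood test, although 1 of the 2 had an unadjusted p under 0.05, and neither passed in DESeq2, with NAB2 at 10.3 ± 0.853 and 14.6 ± 2.69 CPM (edgeR adjusted p = 0.076) and NAB1 at 38.7 ± 7.12 and 45.5 ± 7.20 CPM (adjusted p = 0.39 by edgeR).

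Of 8 other basic leucine zipper partners tested, 2 rose and 1 fell, beside 11.9% called higher and 11.3% called lower over all genes. MAF rose 3.44-fold (2.63 ± 0.590 to 9.07 ± 1.01 CPM, edgeR adjusted p = 1.7e-04), while BATF3, which pairs with JUN proteins, fell to a fold of 0.299 (9.76 ± 0.446 to 2.91 ± 0.648 CPM, adjusted p = 1.4e-04 by edgeR). With limma 1 gene of this list passed on log2(TPM + 1) of the deposited values, in the lower direction, and 3 on rescaled TPM, 2 higher and 1 lower.

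Among genes known from textbooks as AP-1 targets, 12 of 17 in the count table were tested, 5 rose and 2 fell, and the median log2 fold change was 0.84. Over all genes tested, 11.9% were called higher and 11.3% lower, and the median was -0.0026. EDN1, the vasoconstrictor endothelin precursor, rose 4.44-fold (4.75 ± 0.713 to 21.1 ± 3.31 CPM, edgeR adjusted p = 9.3e-06) and SPP1 (osteopontin) 4.51-fold (3.92 ± 0.891 to 17.7 ± 3.31 CPM, adjusted p = 2.9e-05 by edgeR). The gelatinase MMP9 rose 2.64-fold and VIM, the intermediate filament protein vimentin, 1.77-fold. PLAUR, the urokinase receptor, and TGFB1 fell to folds of 0.509 and 0.558. EDN1 and MMP9 are on the study's lists from these libraries, and VIM is also abundant in fibroblasts. VIM did not pass without MT-F7 replicate 2 (edgeR adjusted p = 0.092) or without MC-F7 replicate 2 (adjusted p = 0.073), and MMP9 did not pass without MC-F7 replicate 1, MT-F7 replicate 1 or MT-F7 replicate 2 (0.051 to 0.070). With limma 4 genes of the list passed on log2(TPM + 1) of the deposited values and 7 on rescaled TPM. The collagenase genes MMP1 and MMP13 had 0 counts in all 6 libraries.

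The fibroblast markers that rose with FOS and EGR1 were FBLN1 (3.02-fold), COL3A1 (3.14-fold), COL5A1 (1.73-fold), POSTN (2.37-fold) and PDGFRB (1.90-fold), while TWIST2 fell to a fold of 0.226. POSTN did not pass without MT-F7 replicate 2 (edgeR adjusted p = 0.059), and PDGFRB without MC-F7 replicate 1 or 2 or MT-F7 replicate 3 (0.052 to 0.065). With limma 3 fibroblast markers passed on log2(TPM + 1) of the deposited values and 6 on rescaled TPM. The pluripotent cell markers that fell were led by TDGF1 (fold 0.159), ZFP42 (0.151), NANOG (0.246) and DNMT3B (0.434), with SALL4 as the marker that did not pass. LIN28A, also called lower, did not pass without MC-F7 replicate 2, MT-F7 replicate 1 or MT-F7 replicate 2 (edgeR adjusted p of 0.065 to 0.093). With limma 5 of the pluripotent cell markers passed as lower on log2(TPM + 1) of the deposited values, and 5 on rescaled TPM. Of 11 heat shock genes, which also respond to cell stress, HSPA1A fell, from 618 ± 119 to 393 ± 23.2 CPM (edgeR adjusted p = 0.015), and 10 did not pass. The share called lower over all genes tested was 11.3%. The HSPA1A call was lost without MC-F7 replicate 1, MC-F7 replicate 2 or MT-F7 replicate 2 (edgeR adjusted p of 0.051 to 0.065) and in all 3 limma fits (adjusted p of 0.066 to 0.11).

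The genes whose pattern over the 6 libraries was most like that of FOS were PLEKHA6, ADAMTS6 and CDH10, with root mean square differences of 0.178, 0.208 and 0.209 on the centred log2(CPM + 1) scale, among the 11922 genes averaging 1 CPM or more. For EGR1 they were PLEKHA6 (0.213), LGI1 (0.216) and MAP1A (0.221), and for JUN they were CNNM2 (0.0461), ARID3A (0.0519) and ELMOD3 (0.052). PLEKHA6 was the closest to both FOS and EGR1, at 4.21 ± 1.72 CPM in MC-F7 and 21.9 ± 6.70 CPM in MT-F7.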

How the data were processed

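The authors aligned reads with HISAT2 (2.0.5) and counted them on genes with featureCounts (1.5.0-p3), and deposited raw counts per Entrez gene. The genome build is not given in the sources used here. The library kit (NEBNext Ultra) does not mark strand. They also deposited values called TPM, which for all 10 members were a fixed multiple of the count across libraries (within 1%). Their library totals differ, so TPM was rescaled to 1000000 for levels between genes. Counts were analysed in edgeR 4.0.16 (R 4.3.3) with TMM and filterByExpr (minimum count 10, minimum total 15), which kept 13001 genes, and glmQLFTest with Benjamini-Hochberg adjustment at 0.05. Library totals were 21958386 to 24933430, and intervals come from this fit and include the spread between libraries. limma 3.58.1 on log2(TPM + 1) or (TPM + 0.1), for genes averaging 1 TPM or more, and DESeq2 1.42.0 were alternatives, as were other scaling and filters, a replicate block, each library left out and mitochondrial genes removed. Exact permutation tests used scipy 1.17.1. The members and gene lists were chosen with earlier results of these data known. Named genes were all members, up to 4 per list and direction with the smallest p among those called, and 3 most like FOS, JUN and EGR1, with further genes named where the text says so or to complete a count. List genes without a row in the count table are not analysed here, and some list genes that were counted are not reported here by name. The count test was tested on simulated data, with a dispersion common to all genes and changes placed only in genes above a count threshold. FOSB, FOSL1 and FOSL2 lay below that threshold, so the simulation did not cover genes at their level. Its outcome is not reported here. No protein, promoter or transcript sequences were used here.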

Additional observations from a re-analysis of the deposited data

How the results depend on the processing

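FOS, EGR1 and JUNB kept direction and call in all 17 alternatives, with log2 fold changes of 1.95 to 2.59, 1.88 to 2.34 and 0.64 to 0.94. The members called were 3, or 4 with JUN in the replicate block (adjusted p = 0.033) and in the limma fits (0.040, 0.041 and, on rescaled TPM, 0.049). Over all genes, calls went from 3016 (1553 higher, 1463 lower) to 4674 with the replicate block, 1399 with limma on log2(TPM + 1) (948 higher, 451 lower) and 1371 on log2(TPM + 0.1) (930 higher, 441 lower). Those limma fits kept the library size differences of the deposited TPM and tested fewer genes, and on rescaled TPM 1413 were higher and 914 lower. Leaving out 1 library gave 1914 (without MC-F7 replicate 2) to 3093. Leaving out both of the replicates numbered 3 gave 4242. Same-numbered libraries deviated together with correlations of 0.188, 0.0893 and 0.544. MC-F7 replicate 1 with MT-F7 replicate 2 gave 0.412, and MC-F7 replicate 2 with MT-F7 replicate 1 gave 0.267. Replicates 1 and 2 thus did not match by number. Replicate 3 did, with correlations of -0.442 to -0.239 against libraries of other numbers. The numbers were not taken as pairs, although the block would also call NAB2 (adjusted p = 0.029) and CCN1 (0.044). The FOS family share differed by 8.55 to 11.2 percentage points with 1 library left out, and by 11.2 in raw counts. Values near 0 changed sign without passing. IER2 (log2 -0.25 to 0.11 with 1 library left out) turned positive in 4 of those fits and to 0.088, 0.091 and 0.041 with limma. FOSB (-0.53 to 0.029) turned without MT-F7 replicate 2, FOSL2 (-0.17 to 0.53) without MC-F7 replicate 3 and to -0.061 without both replicates 3, and SRF (-0.019 to 0.15) without MT-F7 replicate 3 and to -0.053 without both. The cause of these shifts was not tested. Low counts limit FOSB, FOSL1 and FOSL2.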
